A study of Homo sapiens with 18 samples.

Results

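The data described here set the cultures numbered biological replicate 1 against those numbered replicate 2 in ZR-75-1 cells, a line made from a human breast cancer of the luminal, estrogen receptor-positive kind. Members were chosen by title: of 18 libraries in all, the 8 that were untreated or given DMSO and carry the number 1 (4 libraries) or 2 (4 libraries). Each set of 4 held an untreated and a DMSO library of the ADAR knockdown line (ADAR edits adenosine to inosine in double-stranded RNA) and an untreated and a DMSO library of the control line, which the protocols call SHC. Cells grew in RPMI with 10% serum, were plated at 70% confluence 24 h before treatment, and then spent 16 h in 1% serum with DMSO, for which the protocols give 100 nM, or with no addition. Total RNA (500 ng) went into a stranded total RNA kit, so that RNA without a poly(A) tail was also sequenced. The remaining 10 libraries, not compared here except where named, hold the cells given 100 nM triptolide, an inhibitor of RNA polymerase II transcription, and the cultures numbered 3. The labels do not say whether libraries with the same number shared a passage, a day, an extraction or a library preparation, or whether a line is 1 clone. A difference between the numbers therefore cannot be told apart from any step that same-numbered libraries shared. The p-values below measure the spread of that difference over 4 pairs of libraries, not over many cultures of each number.

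Cultures of one line can differ in oxygen, nutrients, density and growth state, and each of these has a known transcript signature. When oxygen falls, prolyl hydroxylases of the EGLN family stop marking the hypoxia-inducible factors for destruction, and these factors raise genes for glycolysis, mitophagy, collagen hydroxylation and pH control. When amino acids run short, the kinase GCN2 raises translation of the transcription factor ATF4, which drives amino acid transport and synthesis. Serum and growth factors raise immediate early genes within a short time, and low sterol raises the targets of SREBP2.

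Counts in genes came to between 30517005 and 32816925 in replicate 1 libraries and between 26709657 and 31659264 in replicate 2 libraries. Levels are CPM, counts scaled by TMM to a common library size of 1e6. Luminal genes were expressed in both sets: all 14 luminal epithelial markers on the list passed the low-count filter. KRT8, a keratin of simple epithelia, averaged 2590 ± 355 CPM in replicate 1 and 1600 ± 138 CPM in replicate 2 (SD, n = 4 each). Of the 14, 4 were called higher and 2 lower in replicate 1, against 23.1% and 24.1% over all genes. The lower ones were EPCAM and CDH1, with CDH1 at 337 ± 37.3 CPM in replicate 1 and 516 ± 64.9 CPM in replicate 2. Of the markers that define other cells, the leukocyte gene PTPRC had 4 counts over the 8 libraries, the endothelial gene CDH5 had 4 and the fibroblast gene DCN had 1. ADAR itself, the knockdown target, stood at 352 and 298 CPM in the replicate 1 knockdown libraries (untreated, then DMSO), against 486 and 458 CPM in the replicate 1 control libraries. In replicate 2 it stood at 347 and 372 CPM in the knockdown libraries, against 670 and 686 CPM in the control libraries. The knockdown line was below the control line in each of these 4 comparisons. Between the numbers, ADAR changed by a log2 of -0.33 ± 0.12 (SE; edgeR adjusted p = 0.0468), the replicate 1 and 2 libraries overlapped, and the call was lost under other size factors, among other settings.

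A large share of the measured genes differed between replicate 1 and replicate 2 cultures of the same line and treatment. Of 18303 genes tested (edgeR, quasi-likelihood, with line and treatment as a block), 8650 (47.3%) passed an adjusted p of 0.05. Replicate 1 was higher for 4237 (23.1%) and lower for 4413 (24.1%). The differences were mostly modest, with a median absolute log2 of 0.75 among called genes, but 1479 genes (8.08%) were called and 2-fold or more higher and 1218 (6.65%) were called and 2-fold or more lower. These counts depended on the processing: with a GC offset, described further on, 813 were 2-fold or more higher and 1104 lower, and among genes with a mean of at least 1 CPM 985 were higher and 713 lower. The 4 pairs moved alike: 10894 genes, 59.5% of those tested, lay on the same side in all 4. Across 14179 genes with a mean of at least 1 CPM, the differences of one pair correlated with those of another at r between 0.71 and 0.89, as a description over genes that share libraries, depth and base composition. Small shifts passed the test too, such as that of the glycolytic enzyme GAPDH (log2 -0.28 ± 0.10, SE), so sizes are given beside the counts of calls.

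Of the gene lists examined, the hypoxia response had the median farthest from 0. Of 26 tested genes on the hypoxia list, 22 were lower in replicate 1 and 2 were higher, against 24.1% lower over all genes, and the median log2 was -1.30 against -0.02 over all genes. Of these, 17 differed by 2-fold or more. Summed over the list, levels came to between 828 and 918 CPM in replicate 1 libraries and between 1510 and 1990 CPM in replicate 2 libraries, with no overlap.

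NDRG1, a differentiation gene long used as a readout of low oxygen, had the widest gap of the protein-coding genes named by rule. It stood at 6.14, 9.86, 4.43 and 4.56 CPM in the replicate 1 libraries (control untreated, control DMSO, knockdown untreated, knockdown DMSO), against 185, 196, 141 and 156 CPM in the replicate 2 libraries in the same order. Every replicate 2 library lay far above every replicate 1 library, and the fitted level was 28.2-fold lower in replicate 1 (log2 -4.82 ± 0.15, SE; edgeR adjusted p = 1.75e-07). BNIP3, which sits on mitochondria and marks them for autophagy, stood at 37.7, 40.5, 31.2 and 34.7 CPM in replicate 1, against 291, 275, 203 and 217 CPM in replicate 2. The groups did not overlap, and the log2 difference was -2.76 ± 0.11 (adjusted p = 1.01e-06). Its relative BNIP3L averaged 33.0 ± 3.27 CPM in replicate 1 and 165 ± 18.7 CPM in replicate 2 (SD, n = 4 each). CA9, the carbonic anhydrase that tumours use to hold their pH and a clinical marker of hypoxia, was nearly silent in replicate 1, with 0.0534 and 0.0957 CPM in the control libraries and 0 in both knockdown libraries. In replicate 2 it reached 2.51 and 3.53 CPM in the control libraries and 1.19 and 0.778 CPM in the knockdown libraries. CA9 was singled out after its values were seen.

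**Figure D1:**
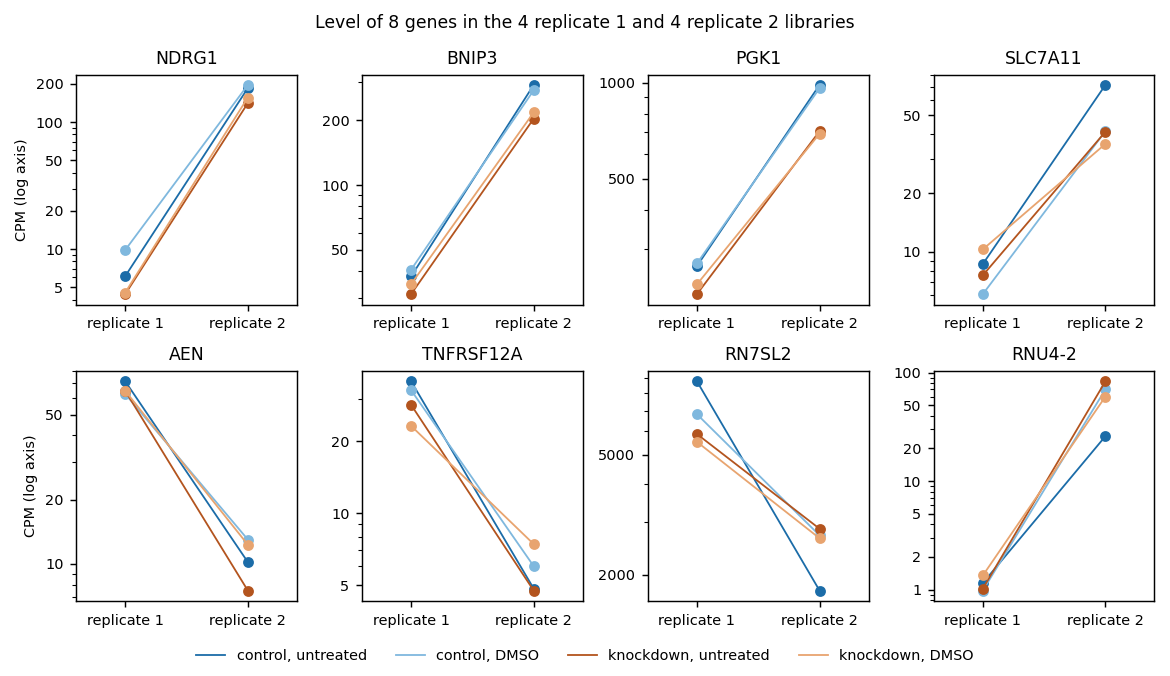
Levels in CPM (log axis) of 8 genes in each replicate 1 library (left) and its replicate 2 partner (right), joined by line and treatment. NDRG1, BNIP3, PGK1, SLC7A11 and RNU4-2 were lower and AEN, TNFRSF12A and RN7SL2 higher in replicate 1 in all 4 pairs.

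The oxygen sensors themselves were part of this set. EGLN3, a prolyl hydroxylase that the factors induce as feedback, averaged 4.48 ± 0.704 CPM in replicate 1 and 21.8 ± 6.64 CPM in replicate 2 (SD, n = 4 each). EGLN1, the main sensor, averaged 34.1 ± 4.34 CPM in replicate 1 and 72.5 ± 8.66 CPM in replicate 2. PDK1, a pyruvate dehydrogenase kinase, averaged 18.9 ± 1.07 CPM in replicate 1 and 77.9 ± 16.2 CPM in replicate 2. P4HA1, a collagen prolyl hydroxylase, differed by a log2 of -2.16 ± 0.12 and MXI1, an antagonist of MYC, by -2.28 ± 0.13 (SE). VEGFA, the angiogenic factor, differed less, with 45.2 ± 5.33 CPM in replicate 1 and 85.4 ± 20.5 CPM in replicate 2. Not every member followed. CA12, a carbonic anhydrase that estrogen also raises, was higher in replicate 1 (log2 0.77 ± 0.11), as was PFKFB3, a regulator of glycolytic flux (0.44 ± 0.11), and the secreted peptides ADM (0.07 ± 0.13) and STC2 (0.25 ± 0.17) were not called. The cultures numbered 3 had a mean of 4.76 CPM for NDRG1 and 36.0 CPM for BNIP3, within the range of the replicate 1 libraries and below every replicate 2 library.

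Glycolysis followed in part. Of 17 tested enzymes and transporters, 10 were lower in replicate 1 and none was higher, against 24.1% and 23.1% over all genes. Their median log2 was -0.42. PGK1, which makes the first ATP of the pathway, stood at 266, 271, 217 and 233 CPM in replicate 1, against 985, 962, 705 and 692 CPM in replicate 2 (log2 -1.74 ± 0.11; edgeR adjusted p = 1.4e-05). LDHA, which turns pyruvate into lactate, averaged 286 ± 27.4 CPM in replicate 1 and 776 ± 143 CPM in replicate 2 (SD, n = 4 each), and the aldolase ALDOC 32.8 ± 4.81 and 76.8 ± 9.42 CPM in the same order of groups. The libraries of the numbers did not overlap for any of these enzymes. TPI1 (log2 -0.04 ± 0.11), HK1 (-0.01 ± 0.10) and PFKL (0.15 ± 0.12), which encode enzymes of the same pathway, were not called. Without the control DMSO replicate 1 library, 6 enzymes were lower.

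The promoters of 3 of these genes are printed because their sequence is where hypoxia-inducible factors are known to act, and because they are the members of the hypoxia and glycolysis lists with at least 100 CPM on average, a called difference of 2-fold or more and 2 or more matches. Each runs from 250 bases before to 50 bases after the RefSeq start, in GRCh38.p14, 5′ to 3′ on the gene's strand. Where a gene had several promoters, the one with the most matches was taken, so the counts of matches are the largest per gene. Capitals mark ACGTG, the core that these factors bind, on either strand (read as CACGT on the other), and CACGTG counts as 2 overlapping matches. The BNIP3 promoter (chr10:131981874-131982173, minus strand) held 2 matches, the LDHA promoter (chr11:18394313-18394612, plus strand) 5 and the PGK1 promoter (chrX:78103998-78104297, plus strand) 3.
BNIP3: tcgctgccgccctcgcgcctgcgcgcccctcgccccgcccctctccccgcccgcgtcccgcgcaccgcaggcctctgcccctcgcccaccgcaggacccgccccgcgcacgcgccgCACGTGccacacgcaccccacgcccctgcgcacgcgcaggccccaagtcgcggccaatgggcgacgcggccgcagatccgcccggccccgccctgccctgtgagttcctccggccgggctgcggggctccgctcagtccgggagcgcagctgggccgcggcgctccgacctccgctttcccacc
LDHA: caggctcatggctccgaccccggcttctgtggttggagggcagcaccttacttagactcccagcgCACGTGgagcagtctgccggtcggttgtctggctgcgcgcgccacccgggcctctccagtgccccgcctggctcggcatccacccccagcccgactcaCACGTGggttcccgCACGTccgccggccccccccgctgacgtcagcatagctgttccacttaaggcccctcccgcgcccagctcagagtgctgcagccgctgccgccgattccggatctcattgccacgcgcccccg
PGK1: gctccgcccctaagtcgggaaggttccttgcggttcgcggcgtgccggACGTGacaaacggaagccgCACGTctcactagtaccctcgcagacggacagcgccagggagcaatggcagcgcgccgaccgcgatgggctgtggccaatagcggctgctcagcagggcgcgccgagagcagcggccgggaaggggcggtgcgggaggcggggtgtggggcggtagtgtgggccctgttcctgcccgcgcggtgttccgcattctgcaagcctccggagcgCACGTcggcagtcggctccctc
Of 20 hypoxia list genes with a promoter in the table, 13 (65%) held a match in any of their promoters, and of the 16 called lower 12 (75%) did. Among all tested genes with a promoter there the share was 31.6% (3783 of 11985). The list was made of hypoxia response genes, so its share of matches is not a result about these cultures. A match is a string of letters and does not show that a factor bound there in these cells.

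**Figure D2:**
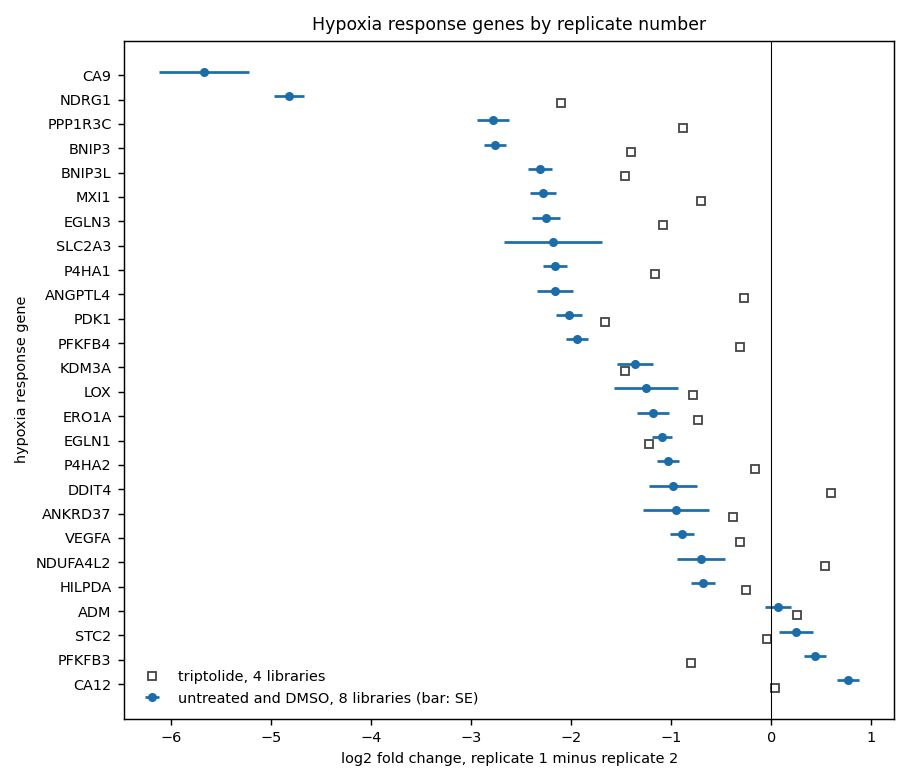
Log2 fold change, replicate 1 minus replicate 2, of the 26 tested hypoxia response genes, in untreated and DMSO cells (circles, bars give the SE) and in triptolide-treated cells (squares, where tested). NDRG1 lay at -4.82 and CA12 at 0.77 without triptolide, and 22 of 26 genes were called lower.

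Amino acid stress genes were also lower in replicate 1. Of 37 tested ATF4 targets, 24 were lower and 2 higher, against 24.1% and 23.1% over all genes, and the median log2 was -0.56. SLC7A11, the cystine importer, stood at 8.67, 6.08, 7.59 and 10.3 CPM in replicate 1, against 71.5, 41.5, 41.2 and 35.7 CPM in replicate 2, without overlap (log2 -2.51 ± 0.20; edgeR adjusted p = 4.19e-05). ASNS, asparagine synthetase, averaged 21.3 ± 2.19 CPM in replicate 1 and 82.4 ± 34.3 CPM in replicate 2 (SD, n = 4 each). ATF4 mRNA itself averaged 138 ± 21.8 CPM in replicate 1 and 243 ± 20.9 CPM in replicate 2, and DDIT3, which encodes the stress factor CHOP, 4.93 ± 1.18 and 11.7 ± 2.42 CPM in the same order of groups. The tRNA synthetases GARS1 (log2 -1.04 ± 0.14) and CARS1 (-1.07 ± 0.14) were among the lower genes, while the amino acid carriers SLC7A5 (0.29 ± 0.11) and SLC3A2 (0.20 ± 0.10) were not called and SLC1A5 (0.63 ± 0.11) was higher. Of 22 chaperones of the endoplasmic reticulum, 11 were lower and 4 higher, against the same shares over all genes. HSP90B1 (GRP94) averaged 704 ± 117 CPM in replicate 1 and 1250 ± 211 CPM in replicate 2. Without the control DMSO replicate 1 library, 7 of these chaperones were lower.

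Clock genes were mostly lower: 13 of 19 were lower in replicate 1 and 1 was higher, against 24.1% and 23.1% over all genes. Their median log2 was -0.57. BHLHE41, a repressor of the clock that low oxygen also induces, stood at 0.800, 0.718, 0.423 and 0.514 CPM in replicate 1, against 7.73, 7.78, 3.93 and 3.89 CPM in replicate 2. DBP, a clock output factor, averaged 7.73 ± 0.920 CPM in replicate 1 and 18.5 ± 2.76 CPM in replicate 2 (SD, n = 4 each). NR1D2, a REV-ERB receptor, averaged 21.5 ± 2.96 CPM in replicate 1 and 45.2 ± 4.14 CPM in replicate 2. CRY1, a clock repressor, was the member that was higher (log2 0.55 ± 0.13), and CLOCK (-0.18 ± 0.12) and BMAL1 (-0.29 ± 0.13) were not called.

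Growth-factor and sterol genes were higher in replicate 1. Of 30 immediate early genes, 20 were higher, against 23.1% over all genes, 4 were lower (1 without the control DMSO replicate 1 library, 2 without its replicate 2 partner) and the median log2 was 0.69. DUSP2, a phosphatase that shuts off MAP kinases, averaged 10.4 ± 2.68 CPM in replicate 1 and 3.08 ± 0.494 CPM in replicate 2 (SD, n = 4 each). EGR3, an early growth response factor, averaged 6.58 ± 0.908 CPM in replicate 1 and 1.54 ± 0.513 CPM in replicate 2, and JUN differed by a log2 of 0.98 ± 0.13. FOS went the other way, at -0.68 ± 0.24 with 1 of 4 pairs higher. Of 32 genes of cholesterol synthesis and SREBP targets, 20 were higher and 1, the desaturase SCD, was lower, against 23.1% and 24.1% over all genes. The mevalonate enzyme MVD stood at 82.4, 68.6, 50.9 and 55.2 CPM in replicate 1, against 15.1, 27.2, 20.9 and 26.1 CPM in replicate 2, without overlap (log2 1.53 ± 0.19; edgeR adjusted p = 0.000243). FASN, fatty acid synthase, averaged 434 ± 110 CPM in replicate 1 and 188 ± 46.3 CPM in replicate 2 (SD, n = 4 each). INSIG1, a sterol-regulated gene, was not called (0.02 ± 0.12).

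Heat shock chaperones, NF-kB targets and S phase genes were also more often higher than lower. Over all genes, 23.1% were higher and 24.1% lower. Of 20 heat shock chaperones, 11 were higher and 0 lower. HSPA1A, the inducible HSP70, stood at 133, 114, 105 and 93.2 CPM in replicate 1, against 42.5, 46.1, 41.9 and 71.2 CPM in replicate 2 (log2 1.17 ± 0.17; edgeR adjusted p = 0.000528). Its near-identical copy HSPA1B differed by 1.34 ± 0.20. Reads that fit both equally well were left out of both counts, so that the pair cannot be told apart with certainty. Of 17 tested NF-kB targets, 11 were higher and 0 lower, with TNFAIP2 at 126 ± 10.2 CPM in replicate 1 and 51.1 ± 8.72 CPM in replicate 2 (SD, n = 4 each), while the inhibitor NFKBIA (0.16 ± 0.11) was not called. Of 39 S phase genes, 17 were higher (10 without the knockdown untreated replicate 2 library) and 3 lower (1 without the control DMSO replicate 1 library). The share of S phase genes called in either direction was near the 47.3% over all genes. E2F1, which drives entry into S phase, averaged 82.1 ± 10.1 CPM in replicate 1 and 33.0 ± 8.73 CPM in replicate 2. PCNA, the polymerase clamp, was not called (0.04 ± 0.11). Genes of G2 and mitosis had 6 of 35 higher and 9 lower (5 without either control DMSO library), against 23.1% and 24.1% over all genes. Their share called was near that of all genes, and the median log2 was -0.11 against -0.02 over all genes.

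Of 24 p53 targets, 9 were higher and 5 lower, against 23.1% higher and 24.1% lower over all genes; 2 were lower without the control DMSO replicate 1 library and 3 without its replicate 2 partner. AEN, an apoptosis-enhancing nuclease, stood at 71.6, 62.5, 64.6 and 64.6 CPM in replicate 1, against 10.2, 13, 7.50 and 12.3 CPM in replicate 2, without overlap (log2 2.64 ± 0.15; edgeR adjusted p = 7.99e-06). The cell cycle inhibitor CDKN1A averaged 15.2 ± 3.66 CPM in replicate 1 and 5.75 ± 0.850 CPM in replicate 2 (SD, n = 4 each). CCNG1 was lower (log2 -0.94 ± 0.14), and MDM2, the feedback inhibitor of p53, was not called (-0.18 ± 0.11). Other genes near the top of the higher side were AMH, the anti-Müllerian hormone, at 10.6 ± 1.03 CPM in replicate 1 and 1.66 ± 0.811 CPM in replicate 2, TNFRSF12A, the receptor for TWEAK, at 30.0 ± 5.43 and 5.77 ± 1.25 CPM in the same order of groups, and the adhesion molecule L1CAM, at 56.0 ± 11.8 CPM in replicate 1 and 10.9 ± 2.12 CPM in replicate 2. On the lower side TXNIP, which binds thioredoxin and curbs glucose uptake, averaged 44.7 ± 3.97 CPM in replicate 1 and 220 ± 49.0 CPM in replicate 2. ULBP1, a stress ligand for natural killer cells, averaged 3.83 ± 0.929 CPM in replicate 1 and 23.4 ± 9.75 CPM in replicate 2.

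Interferon-stimulated genes, the readout usually watched when ADAR is lost, also varied with the replicate number. Of 46 tested, 23 were lower and 7 higher in replicate 1, against 24.1% and 23.1% over all genes, with a median log2 of -0.42. IFIH1, which encodes the RNA sensor MDA5, stood at 36.8, 39.6, 47.3 and 66.5 CPM in replicate 1, against 92.5, 96.7, 89.9 and 92.7 CPM in replicate 2, without overlap (log2 -1.0 ± 0.15; edgeR adjusted p = 0.000657). ISG15, a ubiquitin-like modifier, went the other way in 3 of 4 pairs, at 42.4 ± 12.7 CPM in replicate 1 and 21.2 ± 5.34 CPM in replicate 2 (SD, n = 4 each). By pair, the list's median difference was -0.32 (untreated) and -0.07 (DMSO) in the knockdown line, against -0.82 and -0.75 in the control line. No member's difference between the lines passed edgeR's test of that difference, so the lines are not shown to differ. Without the control DMSO replicate 1 library 14 members were lower, and without its replicate 2 partner 15; without any one of the 4 control libraries, 3 were higher. A library left out takes its pair with it, so the counts for a library and its partner are not separate checks. Of 18 genes of MHC class I presentation, 8 were higher and 4 lower, against 23.1% and 24.1% over all genes. The higher ones were led by NLRC5, the transactivator of these genes, at 17.1 ± 4.12 CPM in replicate 1 and 7.77 ± 1.74 CPM in replicate 2.

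**Figure D3:**
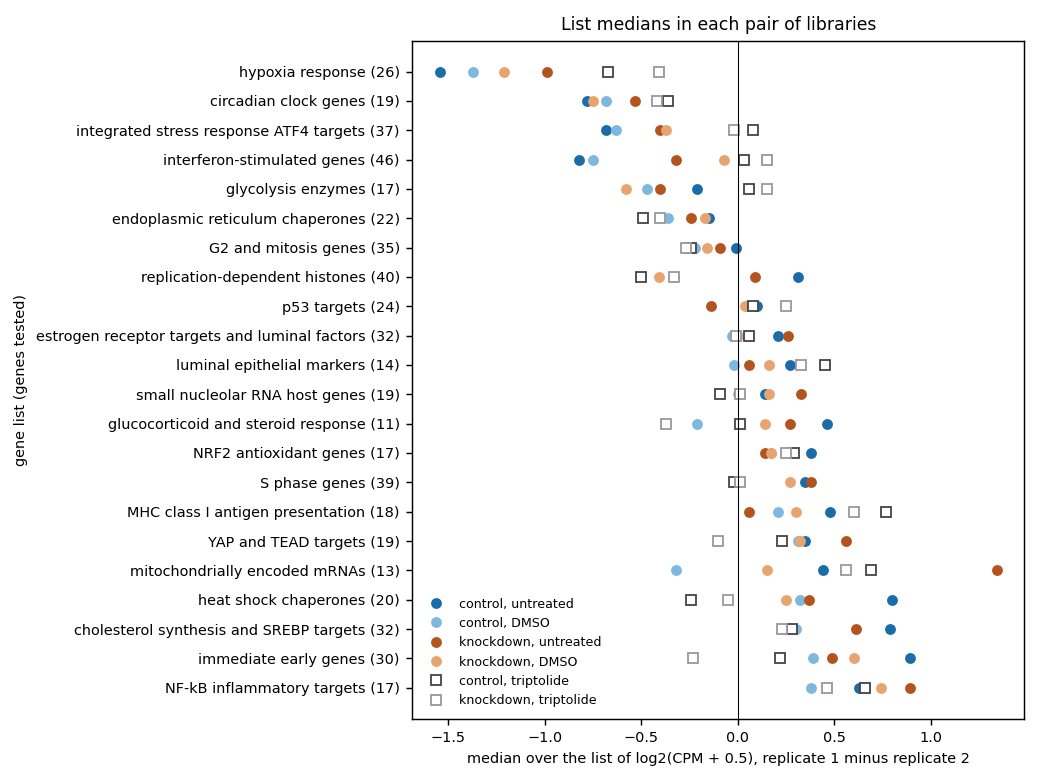
Median over each gene list (y axis, with the number of genes tested) of the difference in log2(CPM + 0.5), replicate 1 minus replicate 2, in the 4 untreated and DMSO pairs (filled circles) and the 2 triptolide pairs (open squares). The hypoxia list lay between -1.54 and -0.99 in the filled pairs.

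A total RNA library also holds short RNAs. Of 45 small nuclear RNAs tested, 6 were higher and 18 lower, of 105 small nucleolar RNAs 33 were higher and 20 lower, and of 27 microRNA genes 15 were higher and 0 lower, against 47.3% called over all genes. The few described next include those with large folds. RNU4-2, a U4 spliceosomal RNA, stood at 1.15, 0.981, 1.02 and 1.35 CPM in replicate 1, against 25.9, 70.0, 82.9 and 60 CPM in replicate 2, without overlap (log2 -5.62 ± 0.26; edgeR adjusted p = 2.11e-06). The U2-like copies RNU2-61P (-5.76 ± 0.27) and RNU2-64P (-5.52 ± 0.18) were lower as well, although reads of near-identical copies make their assignment uncertain. RN7SL2, the RNA of the signal recognition particle, went the other way, at 8770, 6820, 5860 and 5520 CPM in replicate 1, against 1770, 2700, 2840 and 2640 CPM in replicate 2 (log2 1.44 ± 0.18), while its related copies RN7SL3 (0.37 ± 0.24) and RN7SL4P (-0.07 ± 0.33) were not called. BCYRN1, a short Alu-derived RNA that polymerase III transcribes, averaged 34.7 ± 9.08 CPM in replicate 1 and 2.27 ± 0.710 CPM in replicate 2 (SD, n = 4 each). Of 832 processed pseudogenes tested, 401 were lower and 49 higher, with a median log2 of -0.83. Reads that fit a pseudogene and its parent gene equally well have no unique position and were left out of both counts.

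The makeup of the libraries moved with the number. Mitochondrial ribosomal RNA took 25.6 ± 3.65% of counts in replicate 1 and 34.3 ± 2.65% in replicate 2 (SD, n = 4 each), and was lower in replicate 1 in 4 of 4 pairs. An exact two-sided permutation test then gives the smallest p that 4 pairs allow, which is above 0.05. Reads that overlapped no gene, 1 of 5 tallies of reads given to no gene, made up 10.5 ± 1.31% in replicate 1. In replicate 2 they made up 8.08 ± 1.14%, and they were higher in replicate 1 in 3 of 4 pairs. Reads that were ambiguous between genes averaged 7.62% in replicate 1 and 6.66% in replicate 2. Reads without a unique position went the other way, averaging 12.1% in replicate 1 and 14.6% in replicate 2. Base composition also moved with the number. Genes called higher in replicate 1 had a median transcript GC content of 58.1%, those called lower 42.9% and those not called 48.4%. Over 13558 protein-coding genes, the Spearman correlation of the log2 difference with GC was 0.60, and within pairs it ran from 0.37 (knockdown DMSO) to 0.71 (control untreated); this describes genes of the same libraries. In genes of 60 to 65% GC, 61.6% were called higher and 3.00% lower, whereas below 40% GC 3.08% were called higher and 53.2% lower.

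**Figure D4:**
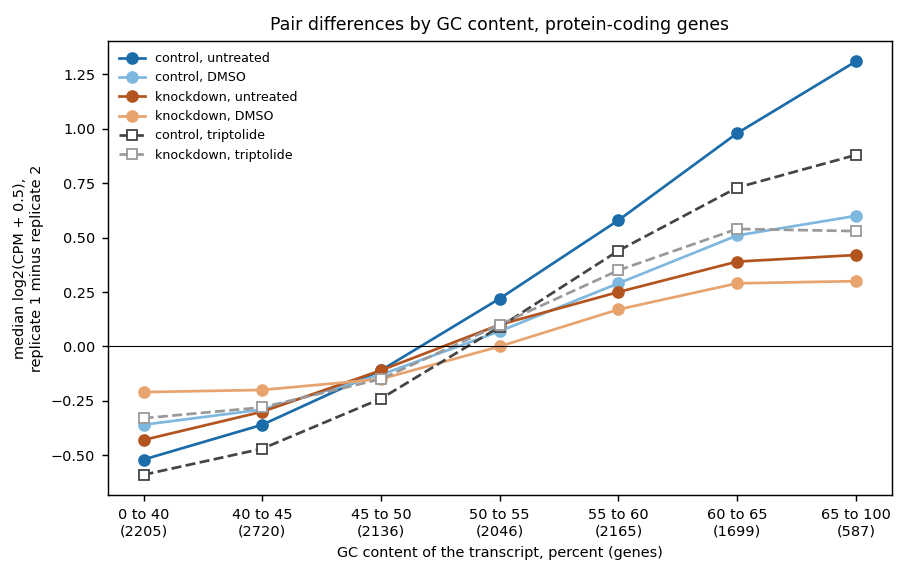
Median difference in log2(CPM + 0.5), replicate 1 minus replicate 2, of protein-coding genes in bins of transcript GC content (x axis, percent, with the number of genes) in each pair. The 3 highest bins lay above 0 and the 3 lowest below 0 in all 6 pairs. In the control untreated pair the median was -0.52 in the lowest and 1.31 in the highest bin.

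The gene groups differ in GC content, so their counts were also taken after a GC offset for each library. This alternative was added after the data were seen, and also removes any biology that runs with GC. Over all 18303 genes, 3807 were then called higher and 4020 lower. The hypoxia list has a median GC of 46.4% and then held 20 lower genes and 1 higher, with a median log2 of -1.22. ATF4 targets (52.7% GC) then held 27 lower and 1 higher, glycolysis enzymes (54.0% GC) 12 lower and 0 higher, and clock genes (50% GC) 15 lower and 1 higher. Cholesterol genes (50.8% GC) held 20 higher and 2 lower, and heat shock chaperones (48.6% GC) 14 higher and 1 lower. Cholesterol genes called 2-fold or more higher fell from 7 to 2, and their median log2 from 0.55 to 0.48. The heat shock median was 0.46, against 0.44 without the offset. Named members moved both ways: MVD from 1.53 to 0.80 and HSPA1A from 1.17 to 0.68, but CYP51A1 from 1.93 to 2.26 and CHORDC1 from 0.73 to 1.16. NF-kB targets (55.4% GC) then held 6 higher and 1 lower, and immediate early genes (55.3% GC) 15 higher and 4 lower. Their medians fell from 0.61 to 0.42 and from 0.69 to 0.45. All 12 protein-coding genes named by rule as higher had smaller differences with the offset, such as AMH at 1.78 against 2.74. MHC class I genes (56.1% GC) held 4 higher and 4 lower of 18, so their share called was near that of all genes. Interferon-stimulated genes (45% GC) held 26 lower and 0 higher. The median log2 of G2 and mitosis genes (42.1% GC) changed from -0.11 to 0.14, with 11 higher and 2 lower. Luminal epithelial markers (56.0% GC) held 1 higher and 6 lower. KRT8 and KRT18, called higher without the offset, were not called with it (0.24 and 0.16).

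Whether the gap differed between the lines or with DMSO was tested by interaction terms, and the tools differed. By edgeR, 0 of 18303 genes (0%) passed for knockdown minus control, with 1514 (8.27%) at an unadjusted p under 0.05 and a smallest adjusted p of 0.21, and DESeq2 called 18. For DMSO minus untreated, 0 genes (0%) passed, with 1035 (5.65%) at an unadjusted p under 0.05 and a smallest adjusted p of 0.806, and DESeq2 called 1. These tests have 2 residual degrees of freedom. For NDRG1 the knockdown minus control difference was -0.36 on the log2 scale (adjusted p = 0.717) and for SLC7A11 0.88 (adjusted p = 0.565).

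The triptolide libraries with the numbers 1 and 2 were not among the 8 libraries compared above. In a fit of 12 libraries, 17913 genes were tested there, 2795 (15.6%) were higher and 2764 (15.4%) lower in replicate 1. Of 4077 genes called higher without triptolide and tested there, 3616 were above 0 under triptolide, 1976 were called higher and 36 called lower. Of 4324 called lower, 3860 were below 0, 1980 were called lower and 23 called higher. Their pair differences correlated with those of the 4 pairs at r between 0.50 and 0.76, over the same 14179 genes. These counts rest on 2 pairs: leaving out a control triptolide library left 294 or 298 genes called in all, and leaving out a knockdown triptolide library left 1876 or 1933.

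Over all genes tested under triptolide, 15.6% were higher and 15.4% lower. By gene group, of 24 hypoxia genes tested there, 12 were lower and 0 higher, with a median log2 of -0.72. NDRG1 differed by -2.10 ± 0.20 (SE, edgeR adjusted p = 0.000194) and BNIP3 by -1.40 ± 0.15. Clock genes held 9 lower and 1 higher of 19, and chaperones of the endoplasmic reticulum 10 lower and 1 higher of 21. Interferon-stimulated genes held 4 lower and 13 higher of 46, with a median log2 of 0.12, where the median was -0.42 without triptolide. Glycolysis enzymes held 3 lower and 3 higher of 17, with a median of 0.15 against -0.42 without triptolide. ATF4 targets held 4 lower and 8 higher of 37, with SLC7A11 at 0.25 ± 0.28, and heat shock chaperones 2 lower and 0 higher of 20, with HSPA1A at -0.02 ± 0.23. Of 29 immediate early genes tested there, 3 were higher and 1 lower, both below the shares over all genes. Cholesterol genes held 9 higher and 3 lower of 32, NF-kB targets 7 higher and 0 lower of 17 and MHC class I genes 12 higher and 2 lower of 18. S phase genes held 5 higher and 5 lower of 39, near the shares over all genes. RNU4-2 (-6.05 ± 0.36) and RN7SL2 (1.88 ± 0.26) were called in the same direction as without triptolide. Whether the gap differed between triptolide and the other libraries was not tested.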

How the data were processed

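Total RNA of 18 ZR-75-1 libraries was sequenced, and each deposited file holds the authors' raw counts per gene, without normalization. Per the submitters' processing notes, the tools named include STAR 2.4.2a, HTSeq 0.6.1, DESeq2 1.4.5 and R 3.1, with the build hg19. Whether reads were counted by strand is not given in the sources used here. Of 60252 gene IDs, 58821 (97.6%) matched GENCODE release 44 on GRCh37, used for names, biotypes, transcript lengths and GC content. Tallies of reads given to no gene stayed out of library sizes and tests.

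Counts were scaled by TMM, filtered by replicate number and tested with edgeR 4.0.16 in R 4.3.3 (quasi-likelihood, two-sided, Benjamini-Hochberg adjustment over all genes tested), in a model of line-by-treatment group plus replicate number with 3 residual degrees of freedom. A call is an adjusted p under 0.05. Interactions of the number with line and with DMSO were tested in the same 8 libraries, and the triptolide difference in a fit of 12. The SE is the log2 difference over the square root of F. Differences of pairs used log2(CPM + 0.5). The fits were tested on simulated counts. No 2 replicates were copies: chi-square per degree of freedom between the numbers was at least 78.3. A 95% Wilson interval of a mitochondrial share reached at most 0.019 percentage points either side, and covers counting error only.

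The pairs are the libraries of the same line and treatment, so that the group, not the number, is the block. The members and gene lists were chosen with earlier results of these data known. Named genes were up to 12 called protein-coding genes per direction with at least 5 CPM and the same direction in 4 pairs, by size, up to 3 of other biotypes, up to 4 called members per list by p, and ADAR. Other list members were named after their values were seen. Alternatives were DESeq2 1.42.0, other size factors, filters, left-out libraries or pairs, single lines, wider fits, no block and a GC offset. A few list members and markers are not reported here.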

Additional observations from a re-analysis of the deposited data

Results flagged for a closer look

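Among 132 sets of 4 pair differences, 5 held a pair far from the other 3, and chance flags about 5% of such sets. The differences are in log2(CPM + 0.5), replicate 1 minus replicate 2. IVL, which encodes involucrin, differed by 2.84 in the knockdown DMSO pair and by 1.98 to 2.07 in the others. MROH6 differed by 3.28 in the control untreated pair and by 1.79 to 1.95 in the others. MCRIP2 differed by 2.85 in that same pair and by 1.66 to 1.85 in the others. RPL41P1, a processed pseudogene of a ribosomal protein, differed by 1.89 in the knockdown untreated pair and by 2.90 to 3.07 in the others. SP110, an interferon-stimulated nuclear body protein, differed by -0.38 in the knockdown DMSO pair and by -0.98 to -0.92 in the others.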

How the results depend on the processing

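The count of 8650 genes stayed within 1.5 times under other size factors (8606), DESeq2 (8078), no low-count filter (9399), a GC offset (7827, of which 5517 were the same genes in the same direction), 12 libraries (9775), 18 libraries (10071) and the control line alone (8267). Without the line-by-treatment group, that is with no replicate block to pair the libraries, 8914 genes were called. The knockdown line alone gave 5053 (2668 higher, 2385 lower), and a 2-fold minimum 2697 (1479 higher, 1218 lower; 813 and 1104 with the GC offset, 985 and 713 at a mean of at least 1 CPM). Leaving out 1 library gave 6113 to 7920 called, 3134 to 3902 higher and 2979 to 4130 lower; its partner then adds nothing, and the remaining pairs are assumed to vary like the one lost. For the difference between lines, DESeq2 called 18 genes, no filter 196, and leaving out 1 library 2 to 382 with 1 residual degree of freedom. For DMSO the counts were 1, 113 and 0 to 728. Under triptolide, the GC offset gave 3524 called and 1634 higher; leaving out 1 library gave 294 to 6516 called, 137 to 3344 higher and 156 to 3184 lower. The pseudogene share differed by -0.101 percentage points with the mitochondrial genome out of the denominator, against -0.0491 with it. Of 129 named genes, 109 kept their call and direction in every alternative; COL1A1 reversed with the GC offset (-0.20, against 0.37 without it). The cause of these changes was not tested.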

Other observations

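Small nucleolar RNA host genes, long noncoding RNAs that carry snoRNAs in their introns, were called in both directions: of 19 tested, 9 were higher and 7 lower in replicate 1, against 23.1% and 24.1% over all genes (4 lower without the control untreated replicate 1 library or either control DMSO library). SNHG15 averaged 41.3 ± 7.55 CPM in replicate 1 and 12.3 ± 2.42 CPM in replicate 2 (SD, n = 4 each), and SNHG25 13.4 ± 0.716 CPM in replicate 1 and 3.10 ± 0.341 CPM in replicate 2. GAS5 (log2 -0.37 ± 0.10), SNHG3 (-0.96 ± 0.12) and ZFAS1 (-0.98 ± 0.10) were lower (edgeR adjusted p = 0.0138 for GAS5, 0.00033 for SNHG3 and 0.000124 for ZFAS1).

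Of 40 replication-dependent histones, 5 were higher and 12 lower, against 23.1% higher and 24.1% lower over all genes, so that their share called was near that of all genes (6 lower without the control DMSO replicate 1 library and 7 without its replicate 2 partner, and 3 higher without either control untreated library or the knockdown untreated replicate 2 library). H3C7 averaged 136 ± 14.8 CPM in replicate 1 and 56.2 ± 13.1 CPM in replicate 2, whereas H2AC20 averaged 109 ± 3.65 CPM in replicate 1 and 200 ± 19.4 CPM in replicate 2. With the GC offset, 3 were higher and 23 lower. CTSD, the lysosomal protease cathepsin D and an estrogen target, averaged 81.1 ± 15.2 CPM in replicate 1 and 23.8 ± 3.37 CPM in replicate 2, while MYB, a transcription factor that estrogen raises, averaged 2.06 ± 0.527 CPM in replicate 1 and 6.48 ± 1.46 CPM in replicate 2. KRT17, a basal keratin, stood at 3.08 ± 0.452 CPM in replicate 1 and 0.386 ± 0.220 CPM in replicate 2. Under triptolide the fitted log2 difference was 5.66 ± 0.53 (edgeR adjusted p = 0.000194). Replicate 2 lay near the floor there, at 0.0923 (control) and 0.0905 CPM (knockdown), against 5.08 and 4.42 CPM in replicate 1. The triptolide pair differences in log2(CPM + 0.5) were 3.24 (control) and 3.06 (knockdown).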
